A study of Mus musculus with 12 samples.

Results

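The master peak-list of open chromatin in mouse blood cells held 84243 peaks, and 1408 of them were CpG island peaks outside promoters. They were chosen by 2 entries of the deposited list: a detailed HOMER annotation that begins with CpG, and a listed transcription start site (TSS) more than 500 bp away on either side. Another 453 peaks of the CpG class lay within 500 bp of a TSS and were counted with the 13171 promoter peaks, and the other 69664 non-promoter peaks served as the comparison. Accessible chromatin was mapped by ATAC-seq, which uses a transposase to tag exposed DNA, in 6 sorted cell types of wild-type C57BL/6 mice 8 to 12 weeks old, with 2 replicate samples of each. Hematopoietic stem cells (HSCs), megakaryocyte progenitors (MkPs), erythroid progenitors (EPs), granulocyte/macrophages (GMs) and B cells came from bone marrow, and T cells came from thymus. The peaks of all 6 cell types were merged into 1 list with 1 row per peak, so no row gives a value per sample or per cell type, the score entry is 0 throughout and the depth behind a peak is unknown. The results below therefore describe where the CpG island peaks lie and what their DNA holds, and no comparison between cell types or replicates was possible. Intervals are 95% intervals over peaks and cover counting error alone, and peaks that share an island or a gene are not independent.

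CpG islands are stretches of DNA rich in G, C and the dinucleotide CpG, which is depleted from most of the mouse genome because methylated cytosine in CpG tends to mutate to thymine. Most islands lie at gene promoters, are free of methylation and are held open by proteins that recognise unmethylated CpG, while others lie inside genes or between them and are often called orphan islands. Some orphan islands are known to start transcripts, to act as enhancers of developmental genes, or to mark the parental origin of imprinted genes.

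The DNA of 7 CpG island peaks is shown to make the class visible, as the central 200 bases of each peak on the plus strand of mm10, with CpG in capitals. The first lies upstream of Pklr, the pyruvate kinase of red blood cells. The next 4 are, for each of the gene lists described further on, the CpG island peak with the highest ratio of observed to expected CpG that overlaps no RefSeq exon. They lie near Pax5, the B cell commitment factor, near Foxk1, a forkhead factor, in Grb10, an imprinted growth adaptor, and near Pcgf5, a Polycomb subunit. The last 2 are the peak over a RefSeq-annotated enhancer upstream of Gata2, a stem cell factor, and the peak with the lowest such ratio, nearest to Gm7550.
Pklr, chr3:89132483-89132682: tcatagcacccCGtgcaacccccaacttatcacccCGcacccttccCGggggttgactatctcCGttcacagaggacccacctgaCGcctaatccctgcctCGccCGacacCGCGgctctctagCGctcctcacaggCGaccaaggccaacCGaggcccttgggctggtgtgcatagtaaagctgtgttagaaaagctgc
Pax5, chr4:44713091-44713290: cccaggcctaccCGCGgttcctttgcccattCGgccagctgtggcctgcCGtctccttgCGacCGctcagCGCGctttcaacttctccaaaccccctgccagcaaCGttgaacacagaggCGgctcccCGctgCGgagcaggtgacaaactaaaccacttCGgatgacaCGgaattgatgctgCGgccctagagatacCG
Foxk1, chr5:142367452-142367651: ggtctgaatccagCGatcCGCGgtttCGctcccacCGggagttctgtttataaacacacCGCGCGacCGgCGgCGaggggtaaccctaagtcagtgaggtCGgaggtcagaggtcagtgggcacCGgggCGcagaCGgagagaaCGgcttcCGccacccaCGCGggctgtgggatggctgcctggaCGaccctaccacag
Grb10, chr11:12036410-12036609: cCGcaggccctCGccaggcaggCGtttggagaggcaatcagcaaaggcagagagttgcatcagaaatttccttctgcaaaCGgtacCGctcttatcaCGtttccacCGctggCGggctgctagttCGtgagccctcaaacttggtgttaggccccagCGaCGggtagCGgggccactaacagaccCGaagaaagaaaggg
Pcgf5, chr19:36348846-36349045: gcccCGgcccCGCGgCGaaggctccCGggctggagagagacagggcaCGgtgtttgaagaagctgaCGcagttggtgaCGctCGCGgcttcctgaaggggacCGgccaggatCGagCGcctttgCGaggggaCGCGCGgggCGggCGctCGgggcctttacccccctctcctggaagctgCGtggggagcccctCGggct
Gata2, chr6:88189783-88189982: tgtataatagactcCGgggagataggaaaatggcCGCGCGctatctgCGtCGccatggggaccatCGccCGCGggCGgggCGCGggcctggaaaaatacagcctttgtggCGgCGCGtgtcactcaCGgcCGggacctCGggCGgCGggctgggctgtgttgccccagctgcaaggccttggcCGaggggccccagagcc
Gm7550, chr12:54313221-54313420: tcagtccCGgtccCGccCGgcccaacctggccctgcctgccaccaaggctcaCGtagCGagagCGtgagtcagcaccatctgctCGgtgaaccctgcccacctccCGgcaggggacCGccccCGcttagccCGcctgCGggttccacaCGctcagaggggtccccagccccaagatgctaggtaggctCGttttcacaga
For contrast, the intergenic non-promoter peak closest to the median composition of the 69664 other non-promoter peaks, whose nearest gene is Klhl4, is shown in the same way.
Klhl4, chrX:114340952-114341151: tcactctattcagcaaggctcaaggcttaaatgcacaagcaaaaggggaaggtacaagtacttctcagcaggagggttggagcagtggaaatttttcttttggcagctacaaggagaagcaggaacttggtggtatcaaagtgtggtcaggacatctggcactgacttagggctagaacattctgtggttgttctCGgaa

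The Pcgf5 window shows 22 CpG in 200 bases, the Gata2 window 21, the Foxk1 window 20, the Pax5 window 16, the Gm7550 window 14, the Grb10 window 13 and the Pklr window 12. The Klhl4 window shows 1. Over the whole peak, the ratio of observed to expected CpG, which divides the CpG count by the count that the C and G content alone would give, was 0.908 near Pcgf5, 0.756 near Gata2, 0.979 near Foxk1, 0.919 near Pax5, 0.906 in Grb10, 0.549 near Pklr, 0.392 near Gm7550 and 0.216 near Klhl4. The Pklr peak therefore sits near the poor end of the class, with 24 CpG and a G+C content of 59.3%. It lies between genes, centred 3559 bp upstream of the Pklr TSS, and is 1 of 2 non-promoter peaks with Pklr as nearest gene. The whole peak holds 1 CCACACCC string, a sequence that KLF factors of red cells can bind, outside the 200 bases shown. No other string of the motif search described further on matched exactly, AGATAA of GATA factors included. That search is narrow, as the window holds TTATCA, which reads TGATAA on the other strand. For a predicted element of Pklr, the paper reports motifs of Gata2, Gata3, Gata4 and TRPS1.

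The class label was checked against the reference sequence. The median G+C content of the CpG island peaks was 64.9% (quartiles 61.3 and 68.9), the median CpG count was 39 and the median CpG ratio was 0.761 (quartiles 0.673 and 0.867). Other non-promoter peaks had medians of 47.5%, 6 CpG and 0.217, and promoter peaks had 63.3%, 38 CpG and 0.778. TpG and CpA, the dinucleotides left by decay of methylated CpG, were close to their expected number in the CpG island peaks (median ratio 1.05, quartiles 0.958 and 1.15) and in promoter peaks (1.05), and stood above it in other non-promoter peaks (1.27). Islands were also rebuilt from the repeat-masked reference by the usual rule of over 200 bp, at least 50% G+C and a CpG ratio over 0.6. Of the 1408 peaks, 1339 (95.1%) had their centre in 1 of these islands, 1374 (97.6%) overlapped one, and 1268 (90.1%) met the composition limits with their own bases. The G+C, CpG and island values follow from the way the class is defined and describe it, while TpG and CpA are not named in the rule. They are still tied to it, because the C of a CpG cannot begin a CpA and its G cannot end a TpG. The TpG and CpA ratio is therefore not independent of the choice of the class. Of the 69664 other non-promoter peaks, 893 (1.28%) were also centred in a rebuilt island. Among them, 101 belonged to the 64421 other intronic and intergenic peaks, and HOMER had given all 893 another class. The class therefore does not hold every island peak outside promoters, and the comparison peaks include some.

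**Figure D1:**
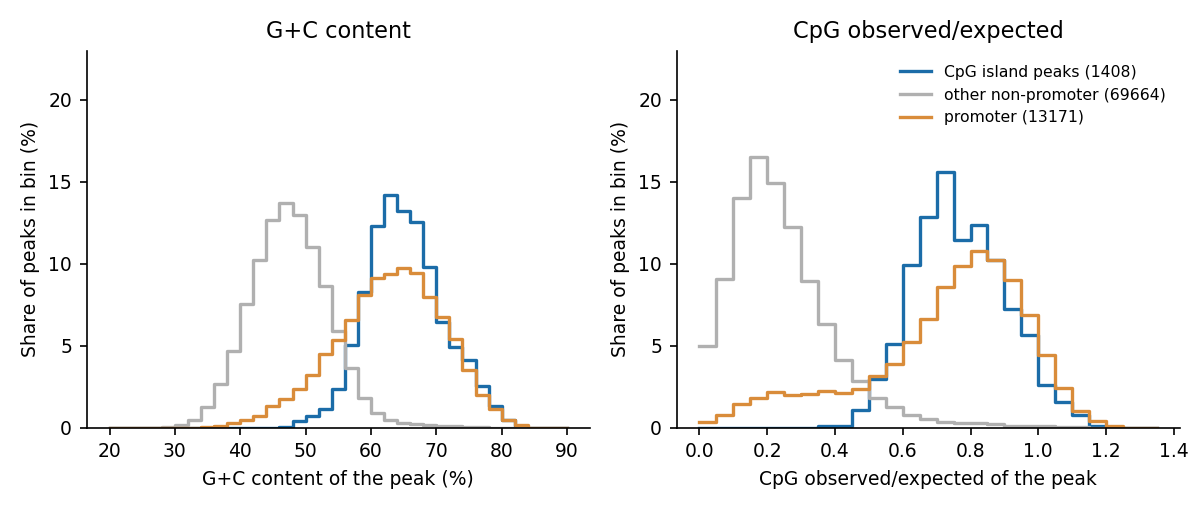
Share of peaks (y axis, %) by G+C content (left, x axis in %, bins of 2 points) and by the ratio of observed to expected CpG (right, bins of 0.05) for CpG island peaks outside promoters (blue), other non-promoter peaks (grey) and promoter peaks (orange). The blue line lies over the main mass of the orange line, with medians of 64.9% and 63.3% G+C, and apart from the grey line with its median of 47.5%.

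The extremes of the class differed widely. The highest CpG ratio, 1.25, was found on the X chromosome at chrX:170010573-170011071, a peak listed under G530011O06Rik and centred 296 bp from a RefSeq start of Erdr1. Next was a peak 25080 bp downstream of Wdr5, a core subunit of histone H3 lysine methyltransferase complexes, with 1.20. It had a G+C content of 49.5% and was centred 199 bp from a RefSeq start of Gm13421. Then came a peak in intron 4 of Csf2ra, a cytokine receptor subunit, with 1.16, centred 14 bp from a GENCODE start of Csf2ra. The lowest ratios were 0.392 near Gm7550, 0.395 near Dgkz and 0.429 in an intron of Jakmip3. The Dgkz peak, listed 2041 bp upstream of the gene for diacylglycerol kinase zeta, lay in no rebuilt island and was centred 6 bp from another RefSeq start of Dgkz. Just beyond it, the peaks in Itsn2 at 1 bp past the limit, Ccdc102a at 502 bp and Tcp11l1 at 505 bp had CpG ratios of 0.915, 0.644 and 0.653, and just within it the peaks of Fam103a1 at 500 bp, Tead1 at 498 bp and Fam83d at 496 bp had 0.871, 1.01 and 0.909. All 6 lay in intron 1 of their gene.

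CpG island peaks outside promoters were nearer to a listed TSS than other non-promoter peaks. The median distance to the listed TSS was 4228 bp (95% interval 3537 to 5162) against 22650 bp for other non-promoter peaks (22362 to 22941). Within 2 kb of a TSS lay 565 CpG island peaks (40.1%) and 4951 other peaks (7.11%). The distances still spanned a wide range: 529 CpG island peaks (37.6%) lay over 10 kb from a TSS and 54 over 100 kb. By band, the numbers were 341 up to 1 kb, 224 from 1 to 2 kb, 171 from 2 to 5 kb, 143 from 5 to 10 kb, 354 from 10 to 50 kb and 121 from 50 to 100 kb. They made up 13.9% of the non-promoter peaks in the nearest band and 0.586% in the farthest. HOMER gives its promoter class to peaks up to 1 kb upstream of a TSS before it looks for islands, so all 341 peaks of the nearest band lay downstream, in introns.

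Introns held 723 of the CpG island peaks and intergenic sequence held 685. The intergenic share was 48.7%, against 48.1% of other intronic and intergenic non-promoter peaks, and the interval of the difference holds 0 (0.519 percentage points, -2.11 to 3.16). Over 1 kb from a TSS, where all 685 intergenic CpG island peaks lie, the intergenic shares were 64.2% and 48.7%, higher in the CpG island peaks by 15.5 points (12.6 to 18.4). Among intronic peaks, intron 1 held 532 of 723 (73.6%) against 33.4% of other intronic peaks. Over 1 kb from a TSS the shares were 58.1% and 32.3%, with a difference of 25.8 points (20.8 to 30.7). Upstream of the nearest TSS lay 39.3% of the CpG island peaks and 41.8% of the others, a difference whose interval holds 0 (-4.97 to 0.182 points). Over 1 kb from a TSS, where the priority of the promoter class no longer acts, the upstream share was 51.9% against 41.7%, higher by 10.3 points (7.23 to 13.3). Both upstream comparisons used all other non-promoter peaks. These include peaks placed in neither introns nor intergenic sequence, a kind absent from the CpG island peaks. The upstream share of the other intronic and intergenic peaks alone was not examined.

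**Figure D2:**
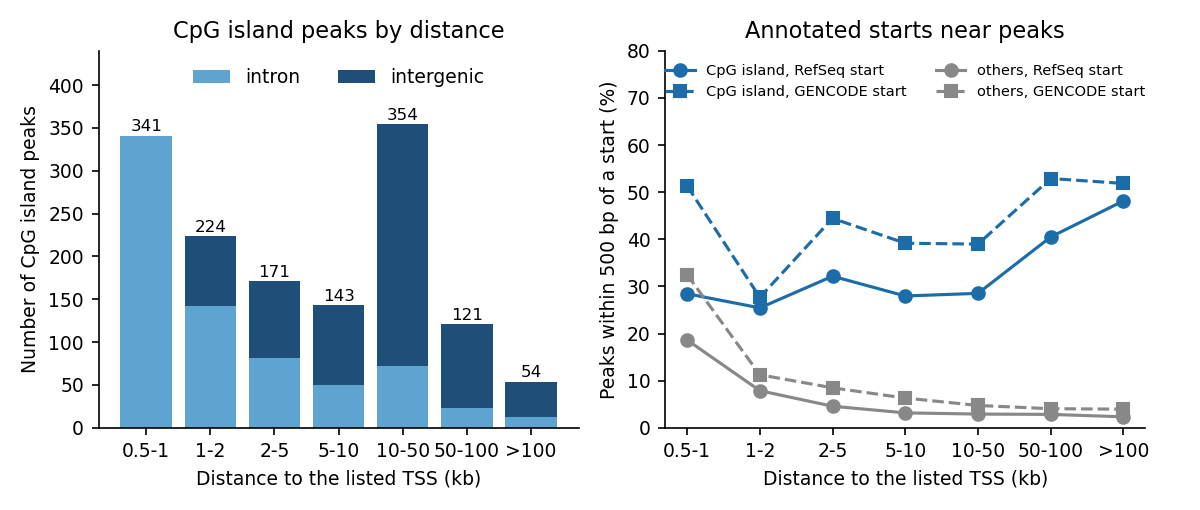
Left, number of CpG island peaks (y axis) by distance to the listed TSS (x axis, kb), in introns (light) and between genes (dark). Right, share of peaks (y axis, %) within 500 bp of any annotated RefSeq (circles) or GENCODE (squares) start for CpG island peaks (blue) and other non-promoter peaks (grey), where the blue RefSeq values stay between 25.4% and 48.1% at every distance and the grey ones drop from 18.6% to 2.34%.

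Many of the peaks called distal by the list lay beside another annotated start. HOMER measures distance to its own set of TSSs, and the centres were therefore compared with all RefSeq transcripts of GRCm38, curated and predicted. A RefSeq start lay within 500 bp of 425 CpG island peaks (30.2%) and of 3.68% of other non-promoter peaks, a difference of 26.5 points (24.2 to 29.0). With curated transcripts alone the shares were 8.31% and 0.510%, and with GENCODE vM21 transcripts they were 42.5% and 6.16%. Among peaks over 1 kb from the listed TSS the RefSeq shares were 30.7% and 3.22%. In the band over 100 kb, 26 of 54 CpG island peaks (48.1%) had a RefSeq start within 500 bp, against 2.34% of the other peaks in that band. Of the 425 starts, 326 belonged to mRNAs and 81 to long non-coding RNAs, and 257 (60.5%) were starts of the gene that the list already named. A RefSeq or GENCODE start lay within 500 bp of 726 CpG island peaks (51.6%), and 682 (48.4%) had neither. These 682 divided into 355 intergenic and 327 intronic peaks, and 254 of them lay over 10 kb from the listed TSS.

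The 5 CpG island peaks farthest from a listed TSS illustrate this. The peak listed 359951 bp upstream of Naaladl2, a peptidase-like gene, was centred 192 bp from a RefSeq start of Naaladl2 itself. The peak 309193 bp from Pcmtd1 was centred 17 bp from a start of the RNA gene Gm26901, and the peak 306312 bp from 9430019J16Rik was 108 bp from a start of Gm13652. The peak 336874 bp from the histone variant gene H2al1j had no RefSeq start within 131255 bp, and the peak 288641 bp from Rps24, a ribosomal protein gene, was 1684 bp from the nearest one. So 3 of the 5 sat at an annotated start, and 2 did not.

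Peaks with a RefSeq start within 500 bp had a median G+C content of 67.1% (66.3 to 67.7), above the 64.1% (63.5 to 64.5) of those without. Their median CpG ratios were 0.776 (0.760 to 0.797) and 0.750 (0.741 to 0.765). These intervals overlap, which does not decide whether the medians differ, and the difference itself was not tested. When the rebuilt islands were used instead of the peak centre, 477 of the 1339 peaks centred in an island (35.6%) shared it with a curated RefSeq start, 164 (12.2%) with a predicted start alone, and 698 (52.1%) lay in an island with no RefSeq start. The first kind lay close to promoters, with a median distance to the listed TSS of 883 bp and a median island length of 1193 bp. The peaks in islands without a start had medians of 9983 bp and 410 bp, and 62.5% of them were intergenic. Intronic CpG island peaks lay in longer islands (median 974 bp, 924 to 1038) than intergenic ones (452 bp, 428 to 492).

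RefSeq exons, predicted transcripts included, overlapped 737 CpG island peaks (52.3%) and 12.4% of other peaks that HOMER placed in introns or between genes, a difference of 40.0 points (37.4 to 42.6). Coding exons overlapped 295, a share 15.6 points (13.5 to 17.8) above the 5.36% of those other peaks. An intronic or intergenic entry in the list thus did not mean that the peak was free of exons.

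The genome-wide islands gave the converse view, namely how many islands away from starts were open in these cells. The rule found 16099 islands, of which 12364 held a RefSeq start or lay within 500 bp of one and 3735 did not. A peak of the master list overlapped 1090 of the 3735 islands away from starts (29.2%, 27.7 to 30.7) and 10323 of those at starts (83.5%, 82.8 to 84.1). Away from starts the share was 20.9% for islands of up to 300 bp, 31.8% up to 500 bp, 40.1% up to 1000 bp and 41.6% for longer ones. The longest class exceeded the shortest by 20.7 points (13.6 to 28.2). At starts the shares in the same 4 classes were 67.4%, 81.9%, 87.7% and 85.5%, and in every class the islands at starts exceeded the others by 43.9 points or more, so the gap was present among islands of like length.

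**Figure D3:**
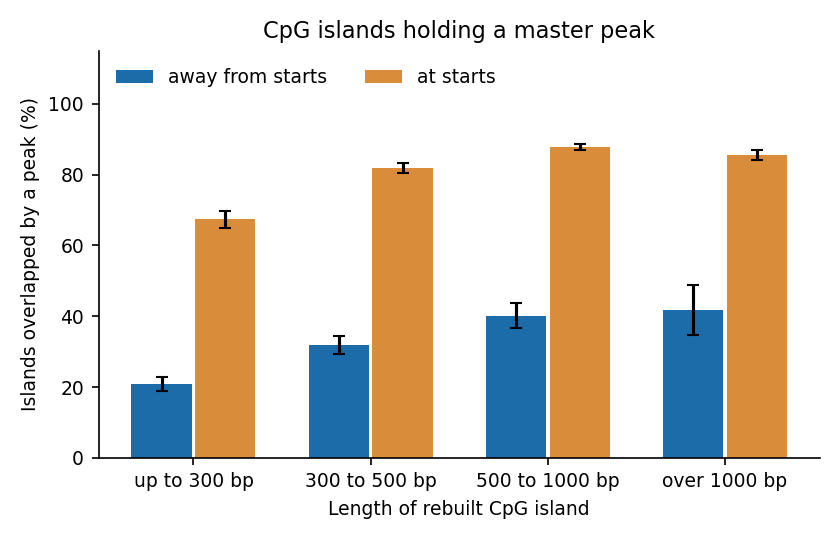
Share of rebuilt CpG islands overlapped by at least 1 master peak (y axis, %) by island length (x axis), away from RefSeq starts (blue) and within 500 bp of one (orange), with 95% Wilson intervals as bars. In each length class the orange bar is at least 43.9 points above the blue bar.

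CpG island peaks lay closer to other open sites than other non-promoter peaks did. Another peak centre lay within 1 kb of 485 CpG island peaks (34.4%) and of 11.9% of other non-promoter peaks. Much of this came from the peaks near promoters, where 73.9% of the CpG island peaks up to 1 kb from a TSS had such a neighbour against 55.1% of the others. Over 1 kb from a TSS the shares were 21.8% and 10.5%, a difference of 11.3 points (8.95 to 13.9). A promoter peak lay within 2 kb of 413 CpG island peaks (29.3%) against 4.52%, and over 1 kb from a TSS within 2 kb of 13.2% against 2.72%. The merged list keeps no overlapping peaks, so a wide open island appears either as 1 peak or as several side by side. The 1339 peaks centred in a rebuilt island shared 1288 islands, and 47 islands held 2 or more of them, with at most 4.

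The nearest genes numbered 1221, and 1076 of them had a single CpG island peak. Bcor, a corepressor that is a subunit of a variant Polycomb complex, had the most, with 13 peaks on the X chromosome between 11998907 and 12252796, a span of 254 kb. Of these, 9 lay in intron 1 of a Bcor transcript and 4 between genes, with CpG ratios from 0.666 to 0.982. They lay in 8 rebuilt islands, 1 of which was 5076 bp long and held 4 of the peaks. Bcor was the nearest gene of 36 non-promoter peaks in all, so the other 23 were not of the CpG class. Of the 13, 1 was centred within 500 bp of a RefSeq start, 244 bp from that of another Bcor transcript, and the other 12 were not.

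**Figure D4:**
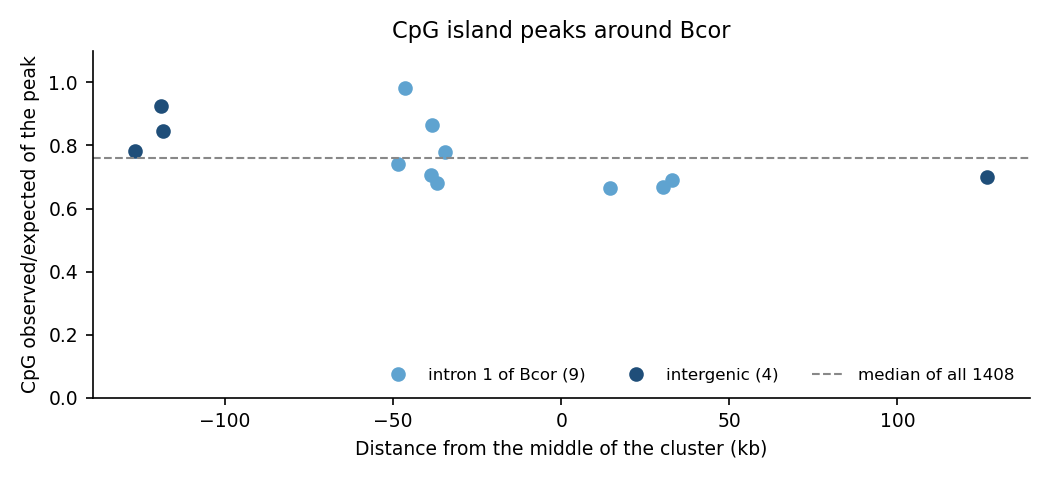
CpG ratio (y axis) of the 13 CpG island peaks with Bcor as nearest gene against distance from the middle of the cluster (x axis, kb), for the 9 in intron 1 (light) and the 4 between genes (dark), with the median of all 1408 CpG island peaks, 0.761, as a dashed line. The points span 254 kb and lie between 0.666 and 0.982, on both sides of the line.

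The gene with the next largest number was G530011O06Rik, with 6 peaks, of which 5 lay near the end of the X chromosome and 1 on the Y chromosome. These sit beside Mid1 and Erdr1 in the region where X and Y share sequence. Reads that map to several places had been discarded, and the effect of this on peaks there was not tested. Creb3l1, a membrane-bound transcription factor, Cxxc5, a CXXC protein of the family that binds unmethylated CpG, Ptma, which encodes prothymosin alpha, and Tex14, a protein of germ cell bridges, had 4 each. Of the 19 genes with 3 peaks, those first by alphabet included Acot11, an acyl-CoA thioesterase, Adgrl2, an adhesion receptor, and Arhgap27, a GTPase-activating protein. At Adgrl2, 3 peaks lay 33227 to 35551 bp upstream of the listed TSS in an island of 3008 bp, and 1 of them was 467 bp from another RefSeq start of Adgrl2. At Ptma, a peak 1188 bp upstream and a peak 1690 bp downstream shared an island of 3752 bp that spans the promoter.

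The 4 Tex14 peaks had no start of a RefSeq mRNA or long RNA within 500 bp. All were in its intron 2, and each was centred 319 to 367 bp from the GENCODE start of a copy of the U3 small nucleolar RNA, which guides ribosomal RNA processing, in the order Rnu3b1, Rnu3b3, Rnu3b4 and Rnu3b2 along chromosome 11. Their CpG ratios were 0.966, 1.08, 1.13 and 1.03, above the third quartile of the class. The 4 peaks resembled each other, and every pair shared an identical run of 149 to 220 bases, so reads from one copy can be hard to assign and the copies are uncertain as separate sites. In all, 9 CpG island peaks (0.639%) were centred within 500 bp of a GENCODE start of a small RNA gene, against 0.241% of other non-promoter peaks (difference 0.398 points, 0.0930 to 0.970). Without the 4 U3 copies the share was 0.356%, and the interval of the difference then held 0 (0.115 points, -0.0927 to 0.591). The other 5 were at the small nuclear RNA genes Gm22614 and Gm24407, the microRNA gene Gm24158, Rn7s2, a 7S RNA gene, and Gm25661, which GENCODE types as a ribozyme. The list named none of these, giving BC107364, Sirt4, Mllt6, Nemf and Gm10033 as nearest genes.

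Transcription factors of blood development were the nearest genes of 22 CpG island peaks (1.56%) and of 1.01% of other non-promoter peaks. The list of 52 such factors was represented by 16 genes, with 12 intergenic and 10 intronic peaks, a median distance to the TSS of 2048 bp and a median CpG ratio of 0.730, beside 4228 bp and 0.761 for all CpG island peaks. Bach2, Myb, Mecom, Hlf, Id3 and Zfpm1 had 2 peaks each. The Zfpm1 peak listed 51254 bp upstream was centred 447 bp from a RefSeq start of another gene, Zfp469. Bach2, a repressor in B cells, had peaks 178758 and 177531 bp upstream of the listed TSS in 1 island of 1652 bp, and the first was 236 bp from another RefSeq start of Bach2. Mecom, a stem cell factor, had a peak 1117 bp into intron 1 and a peak 5543 bp upstream, in separate islands. Both Myb peaks lay in intron 1 of this progenitor factor, 982 and 1874 bp from the TSS, in 1 island of 2340 bp. One Hlf peak was centred 35 bp from another RefSeq start of Hlf, and the other lay 27130 bp upstream with no RefSeq start nearer than that. The Erg peak, in intron 1 of this stem cell ETS factor, was 99 bp from another start. The peaks of Pax5, Id2, Gata2 and Tcf7 lay 2751, 2798, 4008 and 31361 bp upstream, all between genes, and the Runx1 and Runx2 peaks lay in intron 2.

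The deposited list says nothing on enhancers, so the peaks were also laid over the functional elements that RefSeq annotates from published experiments. Such an element overlapped 16 CpG island peaks (1.14%) and 0.482% of other non-promoter peaks, a difference of 0.654 points (0.215 to 1.36). An enhancer was overlapped by 12 of the 16. These included the Gata2 peak shown above, over an element of 400 bp, the peak 2221 bp into Zfpm1, which encodes the GATA cofactor FOG1, over one of 645 bp, and a peak in Ptch1, the Hedgehog receptor. The peak at chr5:107687827-107688325, listed under 4930428O21Rik, overlapped an enhancer of 2228 bp and lay 36267 bp from the nearest curated TSS of Gfi1, a repressor in stem cells and granulocytes. The Pax5 peak overlapped an annotated DNase I hypersensitive site of 617 bp. Other enhancers lay under peaks near Fos, Fosb, Btg2, Hmga2, Slc2a3, Wnt10a, Pax3 and Nkx2-5, and the 2 peaks in Bmp4 and the peak near Slc6a4 lay over annotated promoter elements. RefSeq holds few such elements and favours well-studied genes, so the absence of one says nothing about a peak.

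Developmental regulators were nearest to 41 CpG island peaks (2.91%), from 37 of 229 genes, and to 1.16% of other non-promoter peaks. Their median CpG ratio was 0.803, their median distance 7316 bp, and 26 of the 41 were intergenic. Foxn3, Wnt7b, Bmp4 and Sox4 had 2 peaks each. The Foxn3 peaks lay 56965 and 57931 bp from the listed TSS in intron 1, in an island of 1279 bp, and 1 was centred 37 bp from another RefSeq start of Foxn3. Those of Sox4, a factor of lymphoid progenitors, lay 4694 and 6031 bp upstream. The Wnt7b peaks lay 44025 and 52855 bp upstream, and the farther was 80 bp from a start of the RNA gene D130051D11Rik. Foxe1 and Foxk1 peaks had CpG ratios of 1.07 and 0.979. In the Hoxa cluster, 1 peak lay 3188 bp upstream of Hoxa7 and 93 bp from a GENCODE start of Hoxa7, and 1 lay 1316 bp from the Hoxa3 TSS. Genes best known from other tissues were present too, such as Lhx1, Tbx18, Barhl2 and Nkx6-1.

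Chromatin regulators were nearest to 25 CpG island peaks (1.78%), from 19 of 55 genes found in the file, and to 0.485% of other non-promoter peaks. Their median CpG ratio was 0.806, and 8 of the 25 were within 500 bp of a RefSeq start. Zfp36l1, an RNA-binding protein that the list also held, Pcgf5, Chd7, Arid1a and Cbx8 were among those with 2 peaks each. One Pcgf5 peak lay 30121 bp upstream, and the other lay 30659 bp into intron 1, where it was centred 22 bp from another RefSeq start of Pcgf5. The Arid1a peak 3229 bp upstream was 71 bp from a further start of this chromatin remodeller. Kdm2b, whose product binds unmethylated CpG through a CXXC domain, had a peak in intron 6 that was 260 bp from another Kdm2b start. Jarid2, Ezh2 and Rnf2, which encode Polycomb subunits, each had a peak in intron 1, at 2520, 624 and 568 bp from the TSS. Cbx8 and Cbx7, also Polycomb subunits, had peaks 4814 to 12536 bp from their TSSs, and none of these 3 peaks was within 500 bp of a RefSeq start.

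Imprinted genes were nearest to 8 CpG island peaks (0.568%), from 7 of 43 genes found in the file, and to 0.231% of other non-promoter peaks. Grb10 had 2 in intron 1, at 910 and 2041 bp from listed starts, in islands of 1400 and 1026 bp. Ube3a, Rasgrf1, Peg3 and Impact each had a peak in intron 1, at 669, 1272, 869 and 1114 bp, Ascl2 had one in intron 2, and the peak listed under Cdh15 lay 148 bp from a start of Gm39273. With the exception of the Cdh15 peak, all were intronic. The list gives no allele and no methylation, so the parental origin of these open sites was not examined. The 4 gene lists were described by counts alone, and nearest gene assignment is by distance.

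Strings of 17 binding motifs were searched as exact matches on both strands of the whole peak. Share here means peaks with at least 1 match. GGGCGG, the GC box of SP and KLF factors, was present in 80.3% of CpG island peaks, in 13.2% of other non-promoter peaks and in 75.7% of promoter peaks. NRF1, a regulator of housekeeping promoters, read as GCGCNTGCG, was present in 9.38%, 0.775% and 15.1%. The ETS string with a CpG, CCGGAAG, was present in 11.3%, 3.84% and 21.3%, and the E-box CACGTG, bound by MYC and USF proteins, in 15.5%, 8.28% and 13.8%. TGACGTCA, the site of CREB and ATF factors, was present in 2.98%, 0.655% and 3.63%. In the other direction, AGATAA of GATA factors was present in 7.17% of CpG island peaks and 27.3% of other non-promoter peaks, TGTGGT of RUNX factors in 15.3% and 43.0%, and GAGGAAGT of PU.1, the myeloid ETS factor, in 3.27% and 10.4%. The string GAGGAAGT includes AGGAAG, the ETS string without a CpG, which was present in 43.5% and 65.5%. TGANTCA of AP-1 was present in 6.75% and 17.1%, and TTGCNNAA of C/EBP factors in 11.5% and 20.9%.

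The sign of these differences followed the letters of the strings. All 6 strings that contain CpG were more frequent in the CpG island peaks, with TCTCGCGAG of ZBTB33 the rarest at 0.284% against 0.0258%, and of the 11 without CpG, 6 were less frequent and 5 had intervals that hold 0. The 12 differences whose interval excludes 0 also excluded it with the level set for 17 comparisons. The 5 others were CCANNAGGG of the insulator protein CTCF (12.3% against 12.2%), CCACACCC of KLF factors (5.89% against 5.90%), GCCAAT of NF-Y (16.1% against 14.3%), AAGATGGC of YY1 (2.91% against 2.85%) and TTCAGCACC of the neuronal repressor REST (0.852% against 0.736%). The class was chosen by its CpG, so the sign for CpG-containing strings describes the class. Reading GGGCGG backwards gave 82.3% and 13.1%, close to the forward values. The reversed string shares GGCGG with the forward one, so this does not test the site. Some other strings differed more when read backwards. TGACGTCA then gave 0.781% and 1.62%, and GCCAAT gave 6.46% and 3.69%. Reversal takes the CpG out of TGACGTCA and puts a CpG into GCCAAT, so these values do not test the sites either.

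Comparison within bands of 5 percentage points of G+C content, weighted by the CpG island peaks, made most differences smaller. Other peaks were few where the weights lay. The 2-point bin from 64% G+C held 13.2% of the CpG island peaks and 0.313% of the others. Of the 69664 others, 1525 (2.19%) themselves met the composition limits of an island. How many of the others in the high bands were island peaks of another HOMER class was not counted. GGGCGG remained higher by 14.1 points (11.5 to 16.7), CACGTG by 3.13 (0.770 to 5.50) and TGACGTCA by 2.12 (1.15 to 3.09). Each of these strings contains CpG, by which the class was chosen. The bands match G+C content and not CpG, so the remaining excess cannot be told apart from that choice. GCCAAT of NF-Y, a factor that binds many promoters, became higher by 4.43 points (2.10 to 6.77). The RUNX string remained lower, with a difference of -6.16 points (-8.57 to -3.75). So did the ETS string without a CpG at -7.78 points (-11.1 to -4.43) and the PU.1 string at -1.81 points (-3.03 to -0.590). CCANNAGGG came out lower, at -2.22 points (-4.41 to -0.0251). For the other 9 strings the interval held 0, and for AGATAA the difference went from -20.2 to 0.171 points (-1.41 to 1.75).

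**Figure D5:**
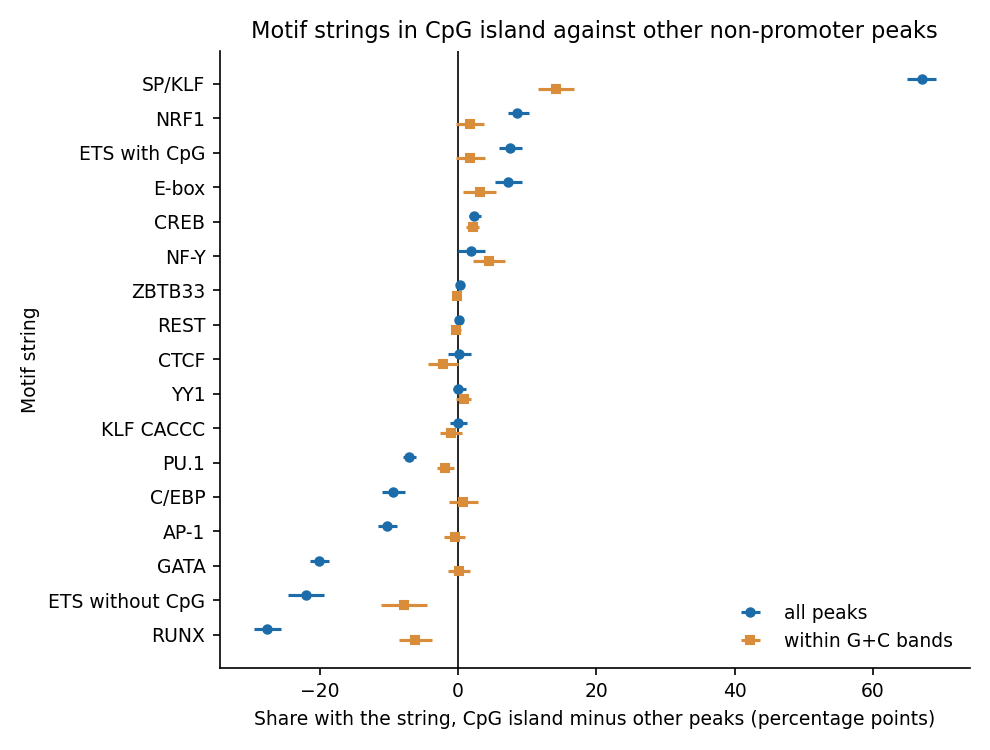
Difference in the share of peaks with each motif string between CpG island and other non-promoter peaks (x axis, percentage points) for 17 strings (y axis), over all peaks (blue circles) and within bands of G+C content (orange squares), with 95% intervals as bars. RUNX, GATA and SP/KLF lie at -27.7, -20.2 and 67.1 points over all peaks and at -6.16, 0.171 and 14.1 within bands.

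Within the CpG island peaks, those with a RefSeq start within 500 bp were set against those without. GGGCGG was present in 87.5% and 77.2%, a difference of 10.3 points (6.02 to 14.2), and TGTGGT in 10.6% and 17.4%, a difference of -6.81 points (-10.4 to -2.83). The peaks at a start had the higher G+C content, and within G+C bands these differences were smaller, at 4.24 points (0.604 to 7.87) for GGGCGG and -4.36 points (-8.05 to -0.665) for TGTGGT. For the other 15 strings the 95% interval of the difference held 0, with AGATAA present in 5.41% of peaks at a start and in 7.93% of the rest (-5.10 to 0.475 points).

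The share of CpG island peaks among non-promoter peaks varied between chromosomes, from 1.23% on chromosome 16 (33 of 2678) to 3.00% on chromosome 11 (135 of 4498) and 3.89% on the X chromosome (54 of 1389). The Y chromosome had 1 of 7. The X chromosome was singled out after the 21 shares had been seen, and it exceeded the autosomes (1.94%) by 1.95 points (1.04 to 3.10). Without the 13 Bcor peaks the difference was 1.04 points (0.255 to 2.08), and without the peaks of Bcor and G530011O06Rik it was 0.684 points with an interval that holds 0 (-0.0468 to 1.68). Peaks were taken from the X chromosome alone, which can only lower the difference, while the autosomes kept their genes with several peaks. The source of the X excess was thus not tested. Of the rebuilt islands away from starts, 34 of 104 on the X chromosome (32.7%, 24.4 to 42.2) and 29.2% of those on the autosomes (27.8 to 30.7) were overlapped by a peak.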

How the data were processed

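ATAC-seq of 12 samples, 2 for each of 6 cell types, was processed by the authors with the ENCODE pipeline on mm10, with multimapping reads left out. The peak-lists of the cell types were joined, reduced with chromVAR to non-overlapping peaks of equal width and annotated with HOMER 4.10.2. The deposited file is this pooled list. Its values, positions and distances in bp, are per the file headers, and it has 0 columns of values per sample. GRCm38 RefSeq and GENCODE vM21 supplied sequence, starts, exons and elements. Islands were rebuilt by scoring 17 for each CpG and -1 for other bases, with repeats masked. Differences of shares have 95% Newcombe intervals, single shares Wilson intervals, medians order-statistic intervals, and within-band differences normal intervals. Bands of G+C content needed 20 other peaks, which kept 1401 CpG island peaks. The code was tested on simulated data. Named genes were the 10 with most peaks, up to 6 per list with most peaks and then the highest CpG ratio, and the extremes of distance and CpG ratio. Others, such as those at small RNA genes, under RefSeq elements, further list members and the Gata2 and Klhl4 sequences, were named after their values were seen. A few named items are not reported here. The peaks and lists were chosen with earlier results of these data known. Python 3.11.15 was used.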

Additional observations from a re-analysis of the deposited data

How the results depend on the processing

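The number of CpG island peaks was 1067 with a promoter limit of 1000 bp and 1297 by distance to curated RefSeq starts. It was 1440 by the rebuilt islands among intronic and intergenic peaks alone, and 1268 of the 1408 by own composition. These counts were all within 1.5 times 1408. A count by rebuilt islands over all non-promoter peaks was not among these settings, and it would add peaks from the 893 others centred in an island. The limit of 1000 bp moved the intergenic share to 64.2%, against 48.7% of other peaks at that limit, the upstream share to 51.9%, the intron 1 share to 58.1% and the median distance to 9756 bp, since it removes the intronic peaks of the nearest band. By curated RefSeq starts the median distance was 2457 bp. In the central 200 bp the median CpG ratio was 0.818 and the TpG and CpA ratio 1.06. The share near a RefSeq start was 8.31% with curated transcripts and 53.3% within 1000 bp. With GENCODE, an alternative chosen after seeing the data, it was 42.5%. Islands away from starts held a peak centre in 23.8% of cases, and 40.4% of those over 500 bp overlapped a peak. The X chromosome share was 2.98% without the Bcor peaks and 2.63% without those of Bcor and G530011O06Rik, both chosen after seeing the data. So were the comparator for the intergenic share at 1000 bp, the small RNA share without the U3 copies and the G+C bands for peaks with and without a start, where each of 17 differences kept its side of 0 or an interval that holds 0. Within G+C bands 5 motif differences changed sign, to -2.22 points for CTCF, 0.171 for GATA, 0.774 for C/EBP, -0.256 for REST and -0.0766 for ZBTB33, and of these the CTCF interval alone excluded 0. The causes of these changes were not tested. The limit of 1000 bp kept all 17 motif shares within their intervals, while the central 200 bp, being shorter, moved 15 of 17. No paired analysis was possible because the list holds no value per sample, and for the same reason no replicate could be left out. Depth is unknown, so a missing peak is not shown to be closed chromatin.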
